A study of Mus musculus with 6 samples.

Results

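KLF2 peaks that lay in clusters of 3 or more on chromosomes 1 to 19 were chosen by position alone from the deposited list of anti-GFP peaks. Neighbouring peaks were chained where the gap from the end of one to the start of the next was under 10000 bases, and every peak of a chain with 3 or more peaks was kept. This gave 1318 of the 6518 peaks on these chromosomes (20.2%), in 346 clusters, out of 6602 peaks in the whole list. A further 1524 peaks (23.4%) lay in pairs and 3676 peaks (56.4%) had no neighbour within the limit. As the spacing of the peaks chose them, their number, spacing and width are given as a description and without a test.

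CUT&RUN was performed on large cavity macrophages (LCMs) sorted from the peritoneal cavity of GFP-KLF2 knock-in mice, in 3 anti-GFP and 3 IgG libraries, 1 of each from every mouse. The study used young adult mice of both sexes, and the sex of the animal behind each library is not given in the sources used here. All 6 libraries came from the same genotype, in which eGFP is joined to the N terminus of KLF2 at its own locus, so the antibody reads the tag and not KLF2 itself. Rabbit IgG gave the background, and no untagged mice or KLF2-deficient cells were among the groups. Each antibody was used at 50 µg/ml, and digestion with the nuclease fusion at 700 ng/ml ran for 2 h. The methods state paired-end sequencing at a depth of 3000000 to 5000000 and not the depth of each library. The list holds only the position of each peak, from all libraries together. The depth behind a peak, its signal and the spread between the 3 mice are therefore unknown here. The LCM identity of the cells could not be checked against marker genes for the same reason.

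KLF2 is a zinc finger transcription factor of the Krüppel-like family. It binds GC-rich and CACCC-type elements through zinc fingers at its C terminus, and it is known for its part in quiescence and migration of lymphocytes, in the vascular endothelium and in restraining macrophage activation. Promoters and enhancers that control one gene often lie several to a locus, and binding sites of one factor can recur at them within a few kilobases. LCMs are long-lived resident macrophages of the serous cavities, and retinoic acid and GATA6 are among the signals and factors known to shape them. The list names no genes, and the genome used here is of the older build GRCm38 while the list is in GRCm39. Genes, promoters and bases under the peaks were therefore not analysed here, and clusters are named by their positions in GRCm39.

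Small clusters made up most of the set. There were 206 clusters of 3 peaks and 86 of 4 peaks, which together held 618 and 344 peaks. Clusters of 5 to 7 peaks numbered 44 and held 249 peaks, or 18.9% of the cluster peaks. Only 10 clusters held 8 or more, with 107 peaks between them (8.12%). A pair of clusters on chromosome 6, with 20 and 17 peaks, stood far above the next in size, which had 10 peaks each.

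**Figure D1:**
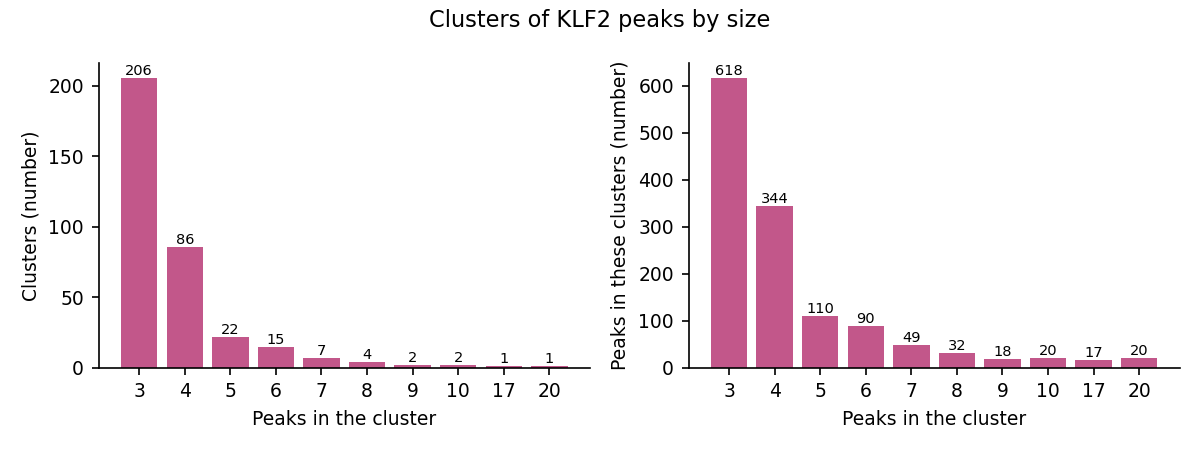
Number of clusters (left) and number of peaks in them (right) by the number of peaks in a cluster, on chromosomes 1 to 19. Bars fall from 206 clusters of 3 peaks to single clusters of 17 and 20 peaks; sizes without a cluster are left out of the axis.

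The 2 largest clusters lay side by side on chromosome 6. The first ran from 47629669 to 47663477 with 20 peaks over 33809 bases, and the second from 47715830 to 47750135 with 17 peaks over 34306 bases. They were 52352 bases apart with no peak between them, so that 37 peaks lay within 120467 bases. Whether reads can be placed equally well within these clusters and in the stretch between them was not tested. Their peaks covered 10777 and 9201 bases, the largest summed widths of all clusters. Single peaks in them ranged from 197 to 1599 bases and from 206 to 1408 bases. The widest in the first ran from 47657986 to 47659584, and the next 2 peaks followed it after only 40 and 50 bases. In the second, 5 peaks from 47720652 to 47724489 were each under 500 bases from the next. Both clusters thus mixed dense runs with open stretches, the longest gaps being 4614 and 4708 bases. With peaks closer than 500 bases joined, each still held 11 separate stretches.

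The clusters next in size differed in layout. On chromosome 19, 10 peaks lay from 8960137 to 8975874, over 15738 bases, and covered 38.3% of the span. Of these, 3 were over 1000 bases wide, at 1002, 1085 and 1130 bases. On chromosome 10, the 10 peaks from 79972666 to 79998089 fell into a group of 5 and a group of 5, with 9139 bases between the groups. This gap was close to the limit, and peaks covered 15.5% of the span. The 9 peaks on chromosome 15 from 101880556 to 101892840 held the longest dense run of any cluster. In it, 7 peaks from 101882420 to 101886943 covered 3442 of 4524 bases, with gaps of 33 to 497 bases. On chromosome 11, the 9 peaks from 98824603 to 98852151 were spread over 27549 bases, and 4 of them lay together from 98832018 to 98833843.

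Of the 4 clusters with 8 peaks, that on chromosome 10 from 81237011 to 81253233 opened with the widest cluster peak of all, at 1899 bases. A peak of 1203 bases lay further along it, from 81246064 to 81247266. The clusters on chromosome 8 had different builds. The one from 85692658 to 85717195 had peaks of 173 to 1170 bases, and the one from 127566646 to 127596288 had peaks of 214 to 516 bases with gaps up to 9458 bases. The cluster on chromosome 5 from 64507544 to 64539380 was the sparsest of these, with 8 peaks of 197 to 351 bases that covered 6.5% of its 31837 bases.

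**Figure D2:**
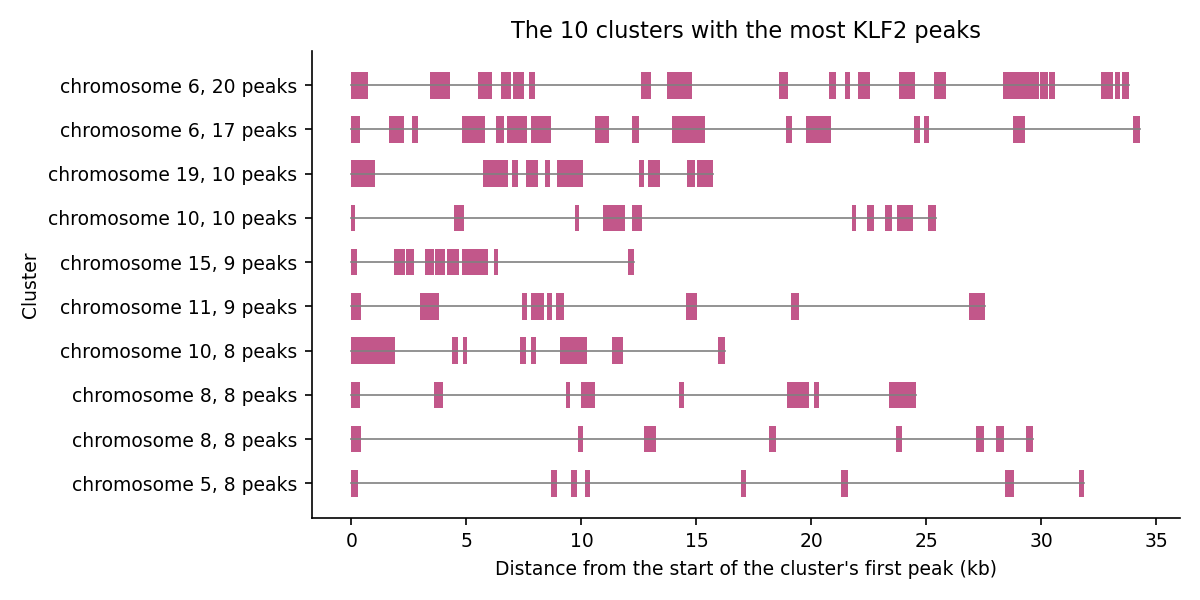
Layout of the 10 clusters with the most peaks, in kb from the start of the first peak of each; boxes are peaks drawn to scale and the grey line is the span. The clusters on chromosome 15 (9 peaks, 12285 bases) and chromosome 19 (10 peaks, 15738 bases) are compact, while the cluster of 8 peaks on chromosome 5 is spread over 31837 bases.

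Among clusters of 4 or more peaks, the densest were small. Of these 140 clusters, the 10 with the most peaks per base shared none with the 10 that had the most peaks. Short spans raise peaks per base, and lists of 10 out of 140 can share few by size alone, so this is a description only. Clusters of 3 were left out of this list, and some had more peaks per base, up to 3.42 per kb. The densest cluster of 4 or more, on chromosome 9 from 21231624 to 21233242, had 2.47 peaks per kb. It held 4 peaks of 430, 271, 355 and 275 bases within 1619 bases. Gaps of 123, 101 and 64 bases parted them. On chromosome 15, 4 peaks of 223 to 338 bases lay from 98831963 to 98833650, with gaps of 121 to 220 bases. The third, on chromosome 9 from 96276571 to 96278435, had a peak of 795 bases among 3 narrower ones. Peaks made up 82.2%, 69.7% and 85.7% of these 3 spans. On chromosome 13, 6 peaks of 224 to 285 bases lay within 2826 bases, from 55592033 to 55594858. This was the only cluster of 6 peaks among the 10 densest, of which 8 had 4 peaks and 1 had 5.

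Other clusters reached a large summed width with few, wide peaks. On chromosome 15 from 76073870 to 76092801, 7 peaks covered 5457 bases, and 3 of them spanned 1226, 1430 and 1370 bases. On chromosome 1 from 170886209 to 170906100, 6 peaks covered 5391 bases. Its 3 wide peaks spanned 1729, 1404 and 1211 bases, and no 2 of its peaks were closer than 2092 bases. Over all 346 clusters, the median summed width was 1303 bases and the quartiles were 1040.25 and 1709.25 bases.

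Most clusters were shorter than 10000 bases. Spans ran from 878 to 34306 bases with a median of 7261.5 bases, and 233 clusters (67.3%) spanned under 10000 bases. At the short end, 40 clusters (11.6%) spanned under 2000 bases, and 3 clusters spanned 30000 bases or more. Peaks covered a median of 19.95% of the span, from 5.3% to 93.7%. Together the cluster peaks covered 536158 bases, or 21.6% of the 2480703 bases under all peaks of these chromosomes.

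Gaps within clusters were spread over 3 orders of magnitude. The 972 gaps ran from 5 to 9934 bases with a median of 1148 bases and quartiles of 223.25 and 4036.25 bases. Of these, 350 (36%) were under 500 bases and 117 (12%) under 100 bases. The 762 gaps of pairs had a median of 777.5 bases, and 321 of them (42.1%) were under 500 bases. Very short gaps thus made up no larger share of the gaps in clusters than of those in pairs. Both kinds of gap are held under 10000 bases by the way the groups were formed.

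**Figure D3:**
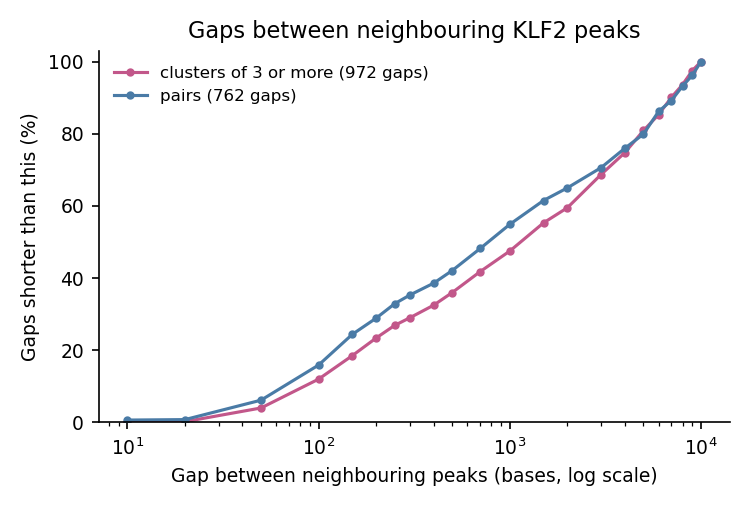
Share of gaps shorter than a given length, in bases on a log scale, for the 972 gaps within clusters of 3 or more and the 762 gaps within pairs. The pairs lie higher up to about 3000 bases (at 1000 bases, 54.9% against 47.5%), and the lines meet above that.

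The clusters were also described with peaks closer than 500 bases joined. The 1318 peaks then made 968 stretches. Of the 346 clusters, 39 (11.3%) became a single stretch, 110 (31.8%) became 2 stretches and 197 (56.9%) kept 3 or more. In 115 clusters (33.2%), with 400 peaks, no gap was under 500 bases. A single stretch that was divided in the peak calling and several separate sites cannot be told apart without the signal. At the limit itself, 53 gaps between neighbouring peaks were from 9000 to under 10000 bases and 54 from 10000 to under 11000 bases, so no break in the gaps marks it. The cluster of 3 with the longest gap, 9934 bases, lay on chromosome 10 from 127467284 to 127486134. On chromosome 7, 3 peaks from 28661181 to 28672504 missed the limit with a gap of 10031 bases. Under a limit of 9000 bases, 9 of the 346 clusters had no run of 3 peaks, and a limit of 11000 bases gave 357 clusters with 1376 peaks.

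As listed, cluster peaks had a median width close to that of other peaks, and a larger share of them was wide. The median was 332.5 bases wide in clusters, 325 bases in pairs and 324.5 bases among lone peaks. The lower quartiles were 252, 244 and 247 bases, and the upper quartiles 475, 441.5 and 430 bases, in the same order. Peaks wider than 1000 bases numbered 49 of 1318 in clusters (3.72%), where 1.90% of all peaks on these chromosomes were as wide. They numbered 27 of 1524 in pairs (1.77%) and 48 of 3676 among lone peaks (1.31%). Peaks wider than 500 bases made up 22.5% of cluster peaks, where 18.7% of all peaks were as wide. With peaks closer than 500 bases joined, the stretches in clusters had a median of 442.5 bases against 338 bases among pairs and lone peaks, and 164 of 968 (16.9%) against 166 of 4879 (3.4%) were wider than 1000 bases. Lone peaks have no neighbour to join, and the peaks of a pair have only each other. The larger difference after joining is therefore built into the grouping and is not a separate result. Chaining the joined peaks anew left 11.4% of the joined peaks in clusters wider than 1000 bases. Joining raised this share outside clusters too. All joined peaks are the 968 and 4879 stretches given above, of which 16.9% and 3.4% were as wide. Width comes from the same peak calling that set the spacing, and peaks of one list are not replicates, so these shares are values without a test.

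Among the wide peaks that lay in clusters, most were in the larger ones. Of the peaks in clusters of 3, 17 of 618 (2.75%) were wider than 1000 bases, and of those in clusters of 4, 4 of 344 (1.16%). The share was 6.83% in clusters of 5 to 7 peaks (17 of 249) and 10.3% in clusters of 8 or more (11 of 107). Without the pair on chromosome 6, the last share was 10% (7 of 70). In all, 28 of the 49 wide peaks lay in the 54 clusters of 5 or more, which held 27% of the cluster peaks. Only 38 of the 346 clusters (11%) had a peak this wide, and 7 had more than one. Median widths moved less, from 331.5 bases in clusters of 3 and 320.5 bases in clusters of 4 to 355 bases in clusters of 5 to 7 and 364 bases in clusters of 8 or more.

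**Figure D4:**
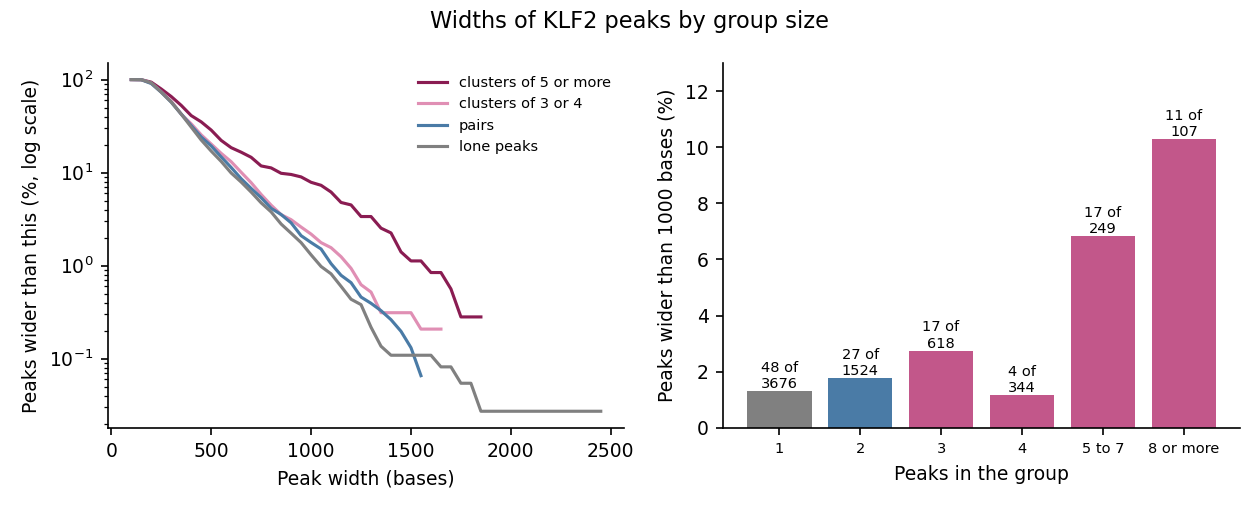
Left, share of peaks wider than a given width, in percent on a log scale, for clusters of 5 or more, clusters of 3 or 4, pairs and lone peaks. Right, share of peaks wider than 1000 bases by the number of peaks in the group, which is 1.31% for lone peaks, 1.16% in clusters of 4 and 10.3% in clusters of 8 or more; the numbers above the bars are wide peaks of all peaks.

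Widths were also set out by place within the cluster. The 692 peaks at either end of a cluster had a median width of 325 bases, and 16 of them (2.31%) were wider than 1000 bases. The 626 inner peaks had a median of 339.5 bases, and 33 (5.27%) were as wide. Larger clusters have more inner peaks, so place and cluster size move together here. In clusters of 3, where size is fixed, the middle peak, 1 of the 3 places, was the widest in 73 of 206 (35.4%), and one of the end peaks in 133 (64.6%). Close neighbours had almost the same width as the rest. The 607 cluster peaks with a neighbour under 500 bases away had a median of 328 bases, and the other 711 had a median of 335 bases.

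Clusters were unevenly spread over the chromosomes. Chromosome 19 had the highest share of its peaks in clusters, 93 of 300 (31%), in 24 clusters. Chromosome 16 had the lowest, 8 of 182 (4.4%), in 2 clusters of 4 peaks each, although 23.1% of its peaks lay in pairs. Chromosomes 10 and 8 followed chromosome 19 with 26.4% and 26%, and the median over the 19 chromosomes was 21%. Chromosomes 7 and 11 held the most clusters, 36 and 35, with 125 cluster peaks on each. They also had the most peaks, 549 and 594, and their shares in clusters, 22.8% and 21%, were near the median. The share in clusters was higher on chromosomes with more peaks per Mb (Pearson's r = 0.60, Spearman's rho = 0.63 across 19 chromosomes, r = 0.55 without chromosomes 11 and 19, which lay farthest from the median density). This is a description only, as both measures come from the same peaks and denser peaks leave shorter gaps.

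**Figure D5:**
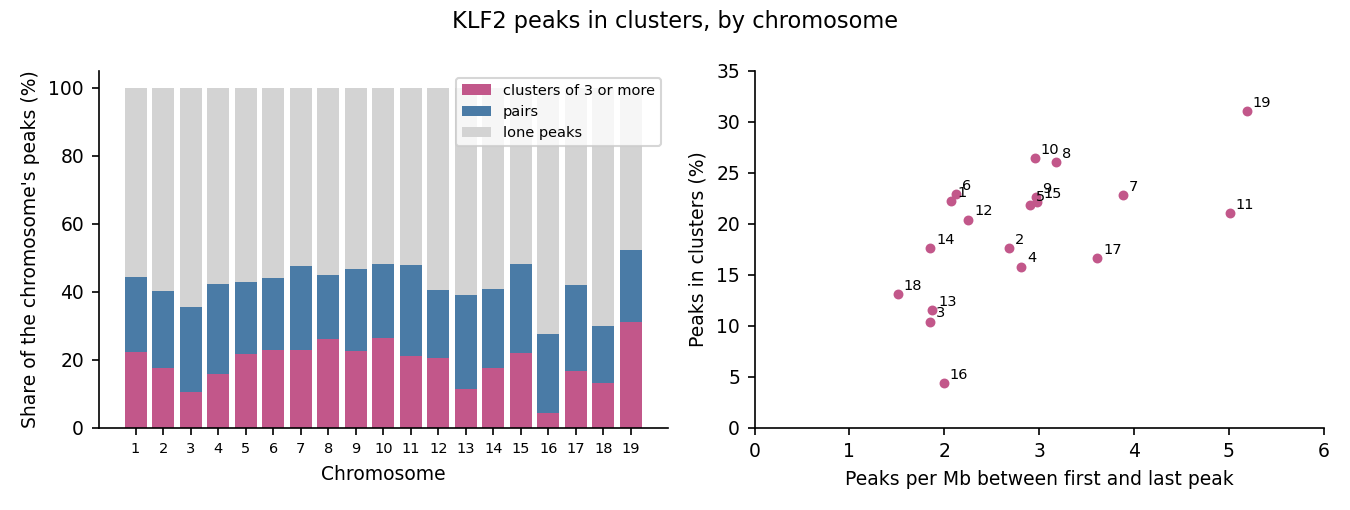
Left, share of each chromosome's peaks in clusters of 3 or more, in pairs and alone, in percent. Right, share of peaks in clusters against peaks per Mb between the first and last peak, with 1 point per chromosome; chromosome 19 is highest at 31% and chromosome 16 lowest at 4.4%, and peak density runs from 1.51 to 5.19 per Mb.

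Some clusters lay near another, but most did not. Of the 327 neighbouring pairs of clusters on one chromosome, 49 (15%) were under 100000 bases apart and 17 (5.2%) under 30000 bases, while the median distance over all 327 was 1358885 bases. Chromosome 10 had the densest region. From 79744155 to 81381678, it held 14 clusters with 63 of the region's 93 peaks (67.7%), including the clusters of 10 and 8 peaks described above. On chromosome 19, 9 clusters lay from 5538089 to 6957831 and held 33 of 56 peaks (58.9%). On chromosome 15, 7 clusters lay from 100511459 to 102314610 and held 30 of 43 peaks (69.8%), among them the cluster with the longest dense run. On chromosome 11, 7 clusters lay from 68978995 to 70560122 and held 25 of 46 peaks (54.3%). On chromosome 8, 6 clusters lay from 84462698 to 85717195 and held 34 of 47 peaks (72.3%). These 5 regions are those with the most clusters within 2 Mb and are given as values. Each starts at the first peak of a cluster and ends with the last cluster that fits. Peaks outside clusters beyond these edges are not counted, which favours a high share in clusters.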

How the data were processed

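The authors trimmed the reads with Trim Galore (0.6.7), aligned them to GRCm39 with Bowtie2 (2.4.2), scaled each library by its spike-in E. coli reads and called peaks with SEACR (1.3) against merged controls. The top-ranked part of these peaks is reported. The deposited list gives other values than counts, namely the chromosome or scaffold of a peak with its first and last position in bases, without signal, score or p-value, and how the 3 anti-GFP libraries were combined is not given in the sources used here. Of columns with values of single samples, 0 were left unused. Ends of peaks on chromosomes 8, 13 and 17 lie beyond these chromosomes in GRCm38, the build of the genome given here, so no coordinates were matched to it. Planned descriptions of promoters, gene lists and motifs were not made for this reason.

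Peaks were chained and described with Python 3.11.15 and NumPy 2.4.6, and positions are printed counting from 1. The chaining was tested on simulated lists. The peaks and gene lists were chosen with earlier results of these data known. Clusters described singly were the 10 with the most peaks, the 10 with the most peaks per base among those of 4 or more, and the 5 with the largest summed width, together with clusters at the limit and regions with many clusters, which were chosen after their values were seen. Other gap limits, merging of peaks closer than 500 bases and other sizes were tried as alternatives.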

Additional observations from a re-analysis of the deposited data

Results flagged for a closer look

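Chromosome X was left out of the clusters described above, and by the same chaining it held 3 clusters of peaks called against IgG. The first had 3 peaks of 295 to 482 bases from 11943430 to 11954363 of GRCm39, and the second had 3 peaks of 177 to 255 bases from 73007429 to 73011480. The third had 6 peaks of 180 to 659 bases from 169085604 to 169099140. Together they held 12 of the 65 peaks on X, against 1318 of the 6518 peaks (20.2%) on chromosomes 1 to 19. With X and Y included, the share of peaks in clusters was also 20.2%, so X did not stand out. No group of 3 was found on chromosome Y or on the 10 scaffolds, where the largest groups had 2 peaks.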

How the results depend on the processing

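The 1318 cluster peaks and 346 clusters depend on how peaks are chained. A gap limit of 50000 bases gave 3063 peaks in 648 clusters. Merging peaks closer than 500 bases first left 709 merged peaks in 197 clusters, with a median width of 377 bases. Of these, 11.4% were wider than 1000 bases, against 3.72% of the unmerged peaks, and merging by itself widens peaks. Of the merged peaks within the 346 clusters as first chained, 16.9% were as wide, and of those outside them 3.4%. Asking for 4 or more peaks left 700 peaks in 140 clusters. These changes follow from the settings themselves. Limits of 5000 and 20000 bases, gaps between centres, inclusion of X and Y and, chosen after seeing the data, leaving out the 2 largest clusters kept both counts within 1.5 times, from 924 to 1884 peaks and from 253 to 464 clusters. The median width of 332.5 bases ranged from 330 to 334 bases under the 4 alternatives without merging. Not run were the alternatives on promoters and motifs, which need gene positions or bases of GRCm39. No paired analysis was possible because the peaks have no values for single libraries, and for the same reason no replicate could be left out. Which weak stretches are listed can depend on depth and on the rank cut of the peaks, and neither could be examined here.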
